A study of Mus musculus with 28 samples.

Results

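The replication-dependent histone genes encode the bulk of the H1, H2A, H2B, H3 and H4 proteins that package newly made DNA. They were taken as every gene whose symbol begins with Hist1h, Hist2h, Hist3h or Hist4h, which gave 69 of the 36806 genes listed in each table. By symbol, 6 were H1 genes, 19 H2a, 19 H2b, 12 H3 and 13 H4 genes. In the mm9 coordinates of the files, 56 lay on chromosome 13, 9 on chromosome 3, 3 on chromosome 11 and 1 on chromosome 6, and 48 of the 69 loci were shorter than 1 kb.

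These genes are short, have no introns and are transcribed mainly while DNA is replicated. Their transcripts normally end in a conserved stem-loop in place of a poly(A) tail: the stem-loop binding protein Slbp and the U7 small nuclear ribonucleoprotein direct the cut. Some members can also give polyadenylated RNA, which is known from differentiated or non-dividing cells.

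The samples were primary bone marrow-derived macrophages from FVB/Hsd mice, infected with retroviral hairpin vectors and selected with puromycin. All were at day 7 of differentiation. They were untreated or given lipopolysaccharide (LPS), the bacterial cell-wall component sensed by Toll-like receptor signalling, at 10 ng/ml. In all, 28 libraries in 6 tables held 1 library for each condition. Newly made RNA was labelled with 4-thiouridine (4sU) for 45 min and pulled down, or polyadenylated RNA was selected with oligo-dT.

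The hairpin sh1137 against Wdr82 was compared with the empty vector LMP in an unstranded 4sU set (untreated, 45 min, 2 h and 4 h of LPS), in a stranded 4sU set (untreated and 1 h) and in a polyA set (untreated and 4 h). It was compared with a scrambled hairpin in a further 4sU set after 45 min of LPS, with and without DRB, an inhibitor of the CDK9 kinase that releases paused RNA polymerase II. Hairpins labelled Set1a+Set1b and Pnuts each had a scrambled control, in 4sU RNA, untreated and after 45 min of LPS. Wdr82 is a subunit of the SET1A and SET1B histone H3 lysine methyltransferase complexes and also of the PTW protein phosphatase complex with Pnuts, the product of Ppp1r10. All cells, controls included, carried a puromycin-selected retroviral vector.

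Levels are in FPKM, fragments scaled by transcript length and library size, as deposited. The targeted genes were checked first. Wdr82 was lower in the hairpin library of 10 of 10 pairs, at 17.8% to 59.1% of its control. In the 2 Set1a+Set1b pairs Setd1a was at 74.3% to 92.1% of the scrambled control and Setd1b at 63.5% to 104.5%, so Setd1b was lower in 1 pair only. Ppp1r10 was higher, at 161% and 163%, in the libraries labelled Pnuts sh, which goes against the label, and every direction given for them is that of the libraries labelled Pnuts sh. Defining macrophage genes were present throughout, with a summed FPKM of 8 markers of 2415 to 5072 in control and 2376 to 9635 in hairpin 4sU libraries. Of 8 neutrophil markers, 6 lymphocyte, 5 erythroid, 5 stromal and 5 mast cell and progenitor markers, 14 stayed below 1 FPKM in every 4sU library without DRB. The summed levels of these lists reached at most 61.2, 12.4, 5.25, 11.9 and 25.3 FPKM in control and 85.0, 19.4, 4.598, 6.13 and 20.5 FPKM in hairpin 4sU libraries. In polyA RNA the lymphocyte sum was 72.7 to 103 FPKM in control and 30.02 to 37.9 FPKM in hairpin libraries.

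The promoters of the members that the results turn on show the short elements that histone promoters are known for. Of the 69 members, 59 matched 1 promoter entry of RefSeq (build GRCm38.p6, not the mm9 build of the expression tables). The 150 bases before the annotated start are given below, 5′ to 3′, for the member of each class with the highest mean over the 22 4sU libraries without DRB and for Hist2h2ac, the neighbour of a gene that moved the other way. Capitals mark 4 motifs searched on both strands. They are the letters TATAAA, which the TATA box of a core promoter holds, the letters CCAAT, the octamer ATTTGCAT and the letters AAACACA. The Oct1 factor binds the octamer in H2B promoters, and AAACACA is a box of H1 promoters. None of the 4 contains another.
Hist1h1b (chr13:21780626-21780775, minus strand): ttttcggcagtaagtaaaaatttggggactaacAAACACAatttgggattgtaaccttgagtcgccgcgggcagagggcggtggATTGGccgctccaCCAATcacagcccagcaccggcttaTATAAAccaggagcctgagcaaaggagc
Hist1h2ab (chr13:23750938-23751087, plus strand): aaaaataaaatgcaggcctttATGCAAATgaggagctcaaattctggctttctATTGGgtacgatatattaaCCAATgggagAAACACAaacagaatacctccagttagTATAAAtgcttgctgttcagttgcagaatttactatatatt
Hist1h2bb (chr13:23746584-23746733, plus strand): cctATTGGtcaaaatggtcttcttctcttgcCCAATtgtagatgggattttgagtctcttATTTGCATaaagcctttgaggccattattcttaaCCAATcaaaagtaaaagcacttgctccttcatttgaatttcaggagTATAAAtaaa
Hist1h3i (chr13:21783398-21783547, minus strand): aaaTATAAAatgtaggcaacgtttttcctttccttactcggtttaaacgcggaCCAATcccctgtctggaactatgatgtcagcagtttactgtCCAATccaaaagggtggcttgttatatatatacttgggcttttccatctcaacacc
Hist1h4d (chr13:23581418-23581567, plus strand): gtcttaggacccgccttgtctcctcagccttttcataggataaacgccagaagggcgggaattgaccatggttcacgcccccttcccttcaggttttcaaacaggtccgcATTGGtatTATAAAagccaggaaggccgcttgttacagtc
Hist2h2ac (chr3:96220881-96221030, minus strand): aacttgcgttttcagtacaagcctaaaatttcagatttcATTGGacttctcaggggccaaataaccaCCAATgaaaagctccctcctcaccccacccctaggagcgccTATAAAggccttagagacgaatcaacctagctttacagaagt

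In Hist1h1b the H1 box began 117 bases and the TATA box 28 bases before the start, with CCAAT 53 bases before it and, on the opposite strand, 66 bases before it. In Hist1h2bb the octamer began 90 bases before the start, and in Hist1h2ab it lay on the opposite strand, 129 bases before it. Over the 250 bases before the start, CCAAT stood in all 6 H1, all 16 H2a and all 15 H2b promoters matched, in 8 of 10 H3 and in 3 of 12 H4 promoters, against 33.9% of the 32851 promoters in the table. The octamer was found in 7 of 16 H2a and 6 of 15 H2b promoters and in none of the 28 others, against 1.601% of all promoters, and AAACACA in 5 of 6 H1 promoters, against 6.25%. TATAAA was found in 28 of 59 promoters, against 12.4%. It was counted anywhere in the window, and a match by letters alone is not shown to be a TATA box. In Hist1h2bb it began 10 bases and in Hist1h3i 147 bases before the start. H2a and H2b genes that face each other share part of this window, so their matches are not independent, and a match is a description of letters.

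In 4sU RNA most of the histone genes were detected. Of the 69, 60 had a mean of at least 1 FPKM over the 22 4sU libraries without DRB, 52 a mean of at least 10 and 29 a mean of at least 50, and 3 stayed below 1 FPKM in every 4sU library. Of all 36806 genes, 14049 had a mean of at least 1 FPKM there and the status OK in each library. All genes were not counted at 10 and 50 FPKM. The highest means per length were those of Hist1h2bb, at 402 FPKM, and Hist1h4d, at 292 FPKM. The first place of Hist1h2bb rests on the stranded Wdr82 set: without it the means were 167 and 327 FPKM, and Hist1h4d was above Hist1h2bb in all 18 other libraries. They were followed by the linker histone genes Hist1h1b at 184 and Hist1h1e at 171 FPKM, Hist1h2bg at 147, Hist1h4f at 136 and Hist1h2ab at 129 FPKM. Without the stranded Wdr82 set Hist1h1e, at 165.5 FPKM, stood above Hist1h1b, at 139.7 FPKM, and Hist1h2ak, at 116.5 FPKM, above Hist1h2ab, at 104.8 FPKM. The most abundant H3 genes were Hist1h3i at 68.1, Hist1h3g at 66.9 and Hist1h3b at 56.6 FPKM. Summed over all members, the control libraries ranged from 1959 to 10670 FPKM (median 5910) and the hairpin libraries from 1028 to 4510 (median 2232). Most genes within a core class (H2a, H2b, H3 or H4) are nearly identical in their coding parts. Their reads could have been split between members by the authors' counting, and a value for 1 such member is less certain than one for its class.

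The stranded Wdr82 set stood apart before any comparison. H4 genes made up 3.34% to 8.93% of the summed histone level in its 4 libraries, against 27.5% to 36.7% in the other 4sU sets, 3 of which are labelled stranded too. H3 genes made up 2.16% to 3.62%, against 10.96% to 16.2%, and H2b genes 34.0% to 53.6%, against 20.1% to 30.2%. Hist1h2bb alone was listed at 3851 FPKM in its LMP library after 1 h of LPS and at 718 FPKM in the untreated one. The cause was not tested, and only ratios within a set are used below.

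**Figure D1:**
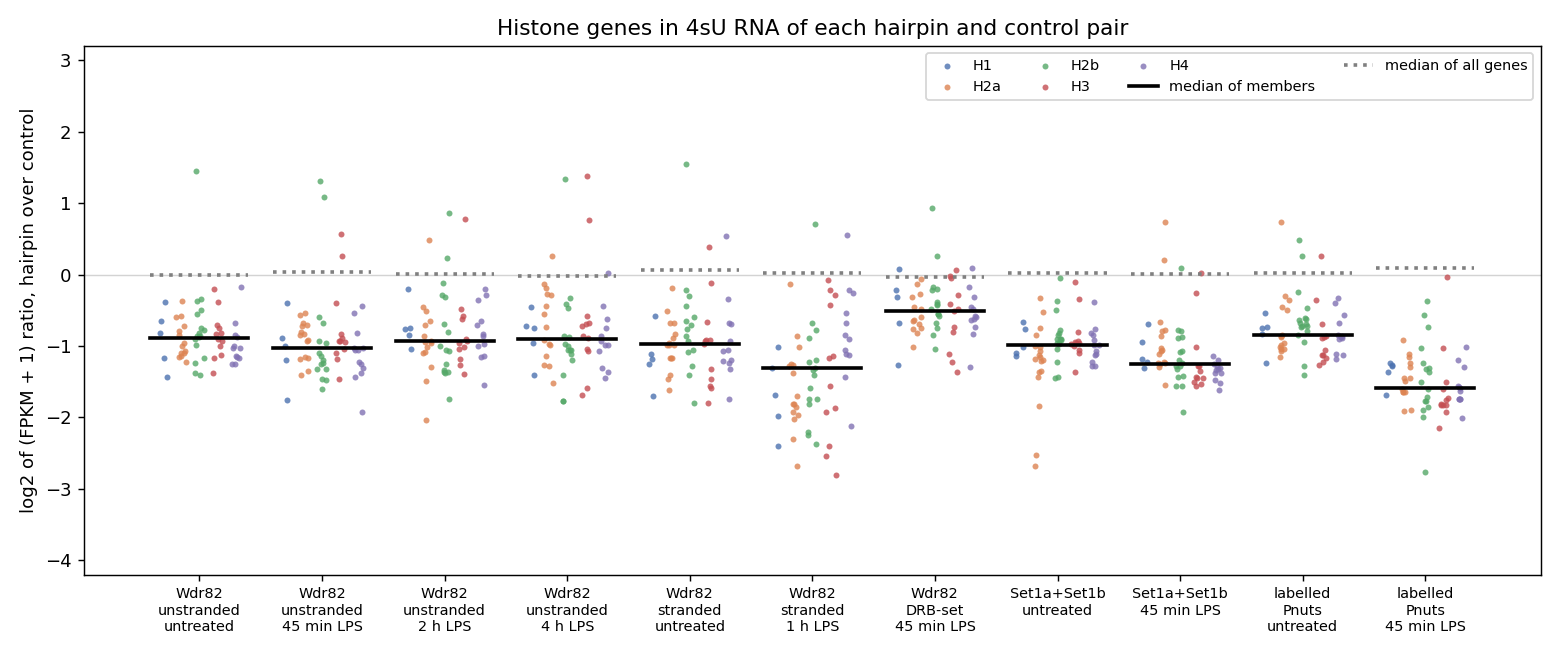
Each point is 1 histone gene measured in a hairpin and control pair of 4sU libraries, coloured by class, and the vertical axis is the log2 ratio of FPKM + 1. Black lines mark the median of the members, which lay between -1.59 and -0.51, and dotted lines the median of all genes, which lay between -0.03 and 0.09.

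Nascent histone RNA was lower with the Wdr82 hairpin in every class. Ratios were formed within each pair as log2 of (FPKM + 1) over (FPKM + 1), the pairs served as repeats, and limma was fitted across 14049 genes with 3 hairpin targets, 11 pairs in all. A gene was called at a Benjamini-Hochberg adjusted p under 0.05. Of the 60 members fitted, 52 fell and 1 rose, while 17.1% of all genes fitted were called lower and 17.5% higher. The other 9 members had a mean FPKM below 1 and were not fitted. The median change of the members was -0.94 against 0.00 over all genes. By class, 5 of 5 H1, 14 of 15 H2a, 13 of 16 H2b, 10 of 12 H3 and 10 of 12 H4 genes fell, with medians of -0.97, -0.94, -0.89, -0.88 and -0.997. Without the stranded set 47 fell and 1 rose. Of the 60, 50 were below 0 in all 7 Wdr82 pairs, as were 1812 of the 14049 genes. In bulk RNA, fewer cells that make histone RNA and less histone RNA per cell cannot be told apart.

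These calls treat the 7 pairs as repeats, and nothing in the labels says whether the pairs of a set came from separate cultures, so the p-values measure the spread between these pairs, which may be technical. With 1 mean ratio per set (3 Wdr82 sets, 2 residual degrees of freedom), limma called 0 members and 0 of all genes for Wdr82. Of the 60 members, 50 then had an unadjusted p under 0.05, 49 of them lower, against 27.5% of all genes.

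Among the linker histone genes, Hist1h1b encodes the H1.5 subtype. In the unstranded set it stood at 170, 153, 126 and 48.3 FPKM with LMP (untreated, 45 min, 2 h and 4 h of LPS) and at 62.1, 44.7, 60.2 and 17.6 FPKM with sh1137. In the stranded set it was 528 and 717 FPKM with LMP and 161 and 135 FPKM with sh1137, and in the DRB set without DRB 122 FPKM with the scrambled hairpin and 50.0 FPKM with sh1137. Every sh1137 library was lower than its own control, and the groups overlapped only in the unstranded set, where the LMP library at 4 h lay below 2 of the sh1137 libraries. The fitted change was -1.57 (SE 0.14), a 2.98-fold fall, with an adjusted p of 5.8e-05. Hist1h1e fell by 0.90 on the log2 scale (SE 0.15, adjusted p = 0.0013), in 7 of 7 pairs. Hist1h1c changed least in its class, at -0.42 (SE 0.12, adjusted p = 0.022), and was lower in 6 of 7 pairs. Without the stranded set its value was -0.27 and did not pass, and the same held without the untreated stranded pair alone (-0.40) and with the 4 unstranded pairs alone (-0.36).

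All but 1 of the H2a genes fitted fell. Of those that fell, Hist2h2aa1 passed the filter on FPKM only through the stranded Wdr82 set. Its mean was 7.38 FPKM with that set and 0.847 FPKM without it. Hist1h2ab, with the lowest value of its class, went from 140, 127, 106 and 49.2 FPKM with LMP to 66.3, 47.6, 49.2 and 25.6 FPKM with sh1137 over the unstranded time course. Its change was -1.14 (SE 0.14, adjusted p = 0.00023). Hist1h2af changed by -1.07 (SE 0.06, adjusted p = 6e-06) and Hist1h2ak by -1.10 (SE 0.13, adjusted p = 0.00027), each lower in 7 of 7 pairs. Hist3h2a, whose locus in the tables also holds Trim17 and other genes, had the highest value, -0.39 (SE 0.19, adjusted p = 0.15), and was lower in 5 of 7 pairs.

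Among the H2b genes, Hist1h2bf had the lowest value of all members, -1.64 (SE 0.13, adjusted p = 2.7e-05), a 3.11-fold fall. It was at 53.1, 41.6, 57.1 and 22.6 FPKM with LMP and at 19.9, 14.3, 16.4 and 5.92 FPKM with sh1137 in the unstranded set. Hist1h2bb fell by 1.15 on the log2 scale (SE 0.20, adjusted p = 0.0021). Hist1h2bg changed by -1.08 (SE 0.12) and Hist1h2bh by -1.23 (SE 0.13), both with an adjusted p under that of Hist1h2bb.

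Most H3 and H4 genes, whose products form the core tetramer of the nucleosome, fell too. Hist1h3b was at 77.4, 70.4, 53.7 and 26.8 FPKM with LMP and at 29.1, 24.9, 21.7 and 7.61 FPKM with sh1137, a change over all sets of -1.53 (SE 0.11, adjusted p = 1.6e-05). Hist1h3g changed by -1.23 (SE 0.23) and Hist1h3i by -0.91 (SE 0.16). Hist1h4k had the lowest H4 value, -1.25 (SE 0.14, adjusted p = 0.00016). Hist1h4d changed by -1.04 (SE 0.10), Hist1h4f by -1.08 (SE 0.12) and Hist1h4h by -0.72 (SE 0.09), each lower in 7 of 7 pairs.

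The 7 members that were fitted and not called were Hist1h2ba, Hist4h4, Hist2h3c1, Hist3h2a, Hist3h2bb-ps, Hist2h3c2-ps and Hist2h4, and all but Hist1h2ba lie outside the Hist1 genes of chromosome 13. Hist1h2ba, a testis-enriched H2B gene, was lower in 7 of 7 pairs, at -0.82 (SE 0.30, adjusted p = 0.057). Hist2h4 changed by -0.00 (SE 0.13) and Hist2h3c1 by 0.41 (SE 0.17, adjusted p = 0.089). Hist2h3c1 shares its locus with Hist2h2aa1 in the tables, so the reads of the pair may not be separated.

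**Figure D2:**
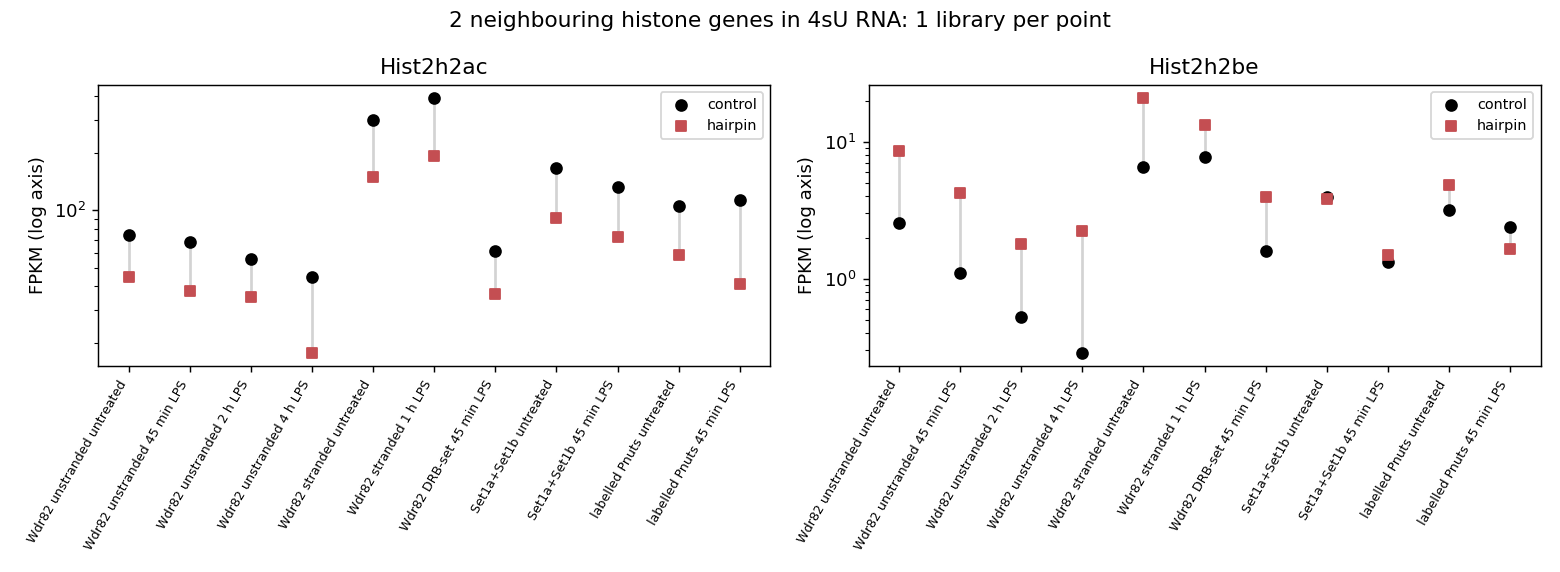
Each point is the FPKM of 1 library on a log axis, for the control (black) and hairpin (red) library of each 4sU pair, for Hist2h2ac on the left and Hist2h2be on the right. Hist2h2ac was lower in the hairpin library of all 11 pairs, while Hist2h2be was higher in the 7 Wdr82 pairs and on either side in the other 4.

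Hist2h2be was the only member called higher. It encodes an H2B protein and lies at chr3:96025043-96027661 (mm9), 240 bases from Hist2h2ac at chr3:96024283-96024803. It went from 2.54, 1.11, 0.527 and 0.285 FPKM with LMP to 8.67, 4.24, 1.78 and 2.24 FPKM with sh1137 in the unstranded set, and from 6.61 and 7.74 to 21.1 and 13.2 FPKM in the stranded set. In the DRB set without DRB it went from 1.60 to 3.96 FPKM. It was higher in 7 of 7 pairs, by 1.16 on the log2 scale (SE 0.13, adjusted p = 0.00015), a 2.24-fold rise, and with a minimum mean of 5 FPKM it was no longer among the genes tested. Hist2h2ac, 1 of the 14 H2a genes that fell, changed by -0.89 (SE 0.09, adjusted p = 9.5e-05), for example from 74.0 to 44.5 FPKM in the untreated unstranded pair. The stretch printed for Hist2h2ac runs towards Hist2h2be and holds the letters TATAAA, 42 bases before the start, and 2 CCAAT matches.

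The Wdr82 change was below 0 for 58 of the 60 members fitted, so nearly any 2 of them have 1 sign. Of 23 neighbours less than 1 kb apart, 18 had both genes fitted, and the changes had the same sign in 17 of them, with a median difference of 0.19 on the log2 scale. Hist1h2ae and Hist1h2bg, 175 bases apart, changed by -1.04 and -1.08. Hist2h2ac and Hist2h2be had opposite signs, with a difference of 2.05. These counts leave out 2 pairs of members listed at 1 shared locus, of which Hist2h2aa1 and Hist2h3c1 also had opposite signs, at -0.97 and 0.41. Hist2h2aa1 was fitted only through its levels in the stranded Wdr82 set. The motif matches did not sort the fitted members with 1 promoter entry, which do not include Hist2h2be. Those with TATAAA had a median of -1.04 (25 genes) and those without it one of -0.95 (26 genes). With and without the octamer the medians were -0.94 (12 genes) and -0.98 (39 genes).

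In single pairs, where there is no test and members below 1 FPKM in both libraries were left out, the same direction stood in every 4sU condition. In the unstranded set 24 of 60 members were at least 2-fold lower untreated (2.55% of all genes), 31 of 61 after 45 min of LPS (3.26%), 23 of 60 after 2 h (3.46%) and 22 of 60 after 4 h (3.78%). In the stranded set the counts were 27 of 60 untreated (3.65%) and 44 of 61 after 1 h (4.77%), and in the DRB set without DRB 7 of 59 (1.93%). The median of the members was -0.89, -1.02, -0.93 and -0.90 in the unstranded set, -0.98 and -1.31 in the stranded set and -0.51 in the DRB set. In the stranded pair at 1 h the deposited bounds of the 2 libraries were apart, with the hairpin lower, for 23 of 61 members and for 93 of all 13569 genes. In the untreated stranded pair they were apart for 3 members lower and 1 higher, and for 48 of 13759 genes lower and 232 higher. In the 5 other Wdr82 pairs they were apart for 0 members. Of the 13089 to 14350 genes measured there, they were apart for 0 to 3 lower and 30 to 77 higher. The 0 members lower is thus near the share of all genes.

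The size of the change for each member was compared across the Wdr82 sets. Over the 60 members, Pearson's r of the mean log2 ratio was 0.74 between the DRB and unstranded sets, 0.62 between the stranded and unstranded sets and 0.54 between the DRB and stranded sets. Spearman's rho was 0.64, 0.29 and 0.40. These are correlations across genes that share libraries, and genes are not independent repeats.

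Nascent histone RNA was lower in the Set1a+Set1b hairpin libraries as well. In the untreated pair Setd1a was at 92.1% and Setd1b at 104.5% of the scrambled control. After 45 min of LPS they were at 74.3% and 63.5%. Of the 60 members fitted 24 fell and 0 rose, while 0.968% of all genes were called lower, and the median of the members was -1.14. All 24 were also among the 52 called lower with Wdr82, of which they made up 46.2%. As 52 of the 60 members were called there and the targets share an estimate of the spread, a high overlap follows. It is no test of agreement between hairpins. By class, the 24 were 8 of 12 H4 genes, 5 of 12 H3, 4 of 16 H2b, 5 of 15 H2a and 2 of 5 H1 genes. Hist1h4d was at 806 and 645 FPKM in the scrambled libraries (untreated and 45 min of LPS) and at 372 and 266 FPKM in the hairpin libraries, a change of -1.20 (SE 0.18, adjusted p = 0.015). Hist1h2bf changed by -1.68 (SE 0.24, adjusted p = 0.012), the lowest value for this hairpin, and Hist1h1c by -0.68 (SE 0.23, adjusted p = 0.16). In single pairs 30 of 65 members were at least 2-fold lower untreated (2.17% of all genes) and 47 of 62 after 45 min of LPS (2.92%).

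This count rests on 2 pairs. It was 2 without the untreated pair, 1 without the 45 min pair, 15 without the untreated unstranded Wdr82 pair and 15 with no filter on FPKM. With 1 mean ratio per set these hairpins have a single ratio, with its spread taken from the Wdr82 sets. The limma fit then called 0 members and 54 of all genes, and 41 members had an unadjusted p under 0.05, against 9.14% of all genes.

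The libraries labelled Pnuts sh, in which Ppp1r10 was higher than in their controls, also had lower histone RNA. Of the 60 members 43 fell and 0 rose, while 6.09% of all genes were called lower, and the median of the members was -1.19. Of these 43, 41 (95.3%) were among the 52 called with Wdr82, of which they made up 78.8%. As 52 of the 60 members were called there and the targets share an estimate of the spread, a high overlap follows. It is no test of agreement between hairpins. That overlap depends on the labelled direction. With the ratios of these 2 pairs turned (labelled control over labelled hairpin, an alternative chosen after seeing the data), 43 members were higher and 0 lower. Turning changes only the sign of these ratios, so the 43 follow from the labelled count and are not a further test. Hist1h4d was at 599 and 590 FPKM in the scrambled libraries and at 274 and 177 FPKM in the libraries labelled Pnuts sh, a change of -1.43 (SE 0.18, adjusted p = 0.0021). Hist1h1b was at 214 and 245 FPKM and at 120 and 100 FPKM, a change of -1.06 (SE 0.26, adjusted p = 0.027). In single pairs 17 of 61 members were at least 2-fold lower untreated (2.89% of all genes) and 55 of 60 after 45 min of LPS (4.21%). Without the 45 min pair limma called 2 members. With 1 mean ratio per set, again a single ratio for this target, it called 0 members and 34 of all genes, and 41 members had an unadjusted p under 0.05, against 18.0% of all genes. Hist2h2be was at 3.19 and 2.40 FPKM in the scrambled and 4.85 and 1.64 FPKM in the labelled libraries (0.06, adjusted p = 0.96), and with the Set1a+Set1b hairpins it changed by 0.02 (adjusted p = 1.00).

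The hairpin effects were then compared with each other. For Wdr82 minus Set1a+Set1b, 0 of 60 members were called, while 0.982% of all genes were, and 4 members had an unadjusted p under 0.05, against 13.1% of all genes. For Wdr82 minus Pnuts, 1 member was called, while 3.83% of all genes were, and 11 had an unadjusted p under 0.05, against 19.5% of all genes. That member was Hist1h2bl, named because it was the only one called, with -0.52 (SE 0.09) for Wdr82 and -1.50 (SE 0.16) for the libraries labelled Pnuts sh, a difference of 0.98 (SE 0.19, adjusted p = 0.022). With the ratios labelled Pnuts turned, the difference was called for 55 of 60 members, 54 of them lower, and for 31.8% of all genes, and that of Hist1h2bl was -2.01 (adjusted p = 0.000101). As labelled, without the 45 min pair labelled Pnuts it was 0 members, and without the stranded Wdr82 pair at 1 h it was 2. For Hist2h2be the difference was 1.11 from the Pnuts and 1.14 from the Set1a+Set1b value, and neither passed, while with the ratios turned the former was 1.22 (adjusted p = 0.0074). These counts do not show that the 3 hairpins act alike.

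The genes that work with the histone genes moved by different amounts. Among 25 S phase and DNA replication genes, 22 fell (17.1% of all genes) and 0 rose (17.5%) with the Wdr82 hairpin, with a median of -0.54. Among them Mcm6, a subunit of the replicative helicase, fell by 0.70 on the log2 scale (SE 0.06), Mcm3 by 0.64 (SE 0.06), Ccna2, the S phase cyclin A gene, by 0.71 (SE 0.09) and Pcna, the sliding clamp, by 0.45 (SE 0.09, adjusted p = 0.0041). With the libraries labelled Pnuts sh 18 fell (6.09% of all genes), with a median of -0.91. With Set1a+Set1b 0 of 25 were called, with a median of -0.22. Of all genes 0.968% were called lower there, so 0 of 25 is near the share of all genes. For Wdr82 minus Set1a+Set1b the change of 1 of the 25 passed (0.982% of all genes), with a median difference of -0.32.

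Markers of cell types moved too, and their part in the histone result was not tested. Over all genes, 17.1% were called lower and 17.5% higher with Wdr82. The share called lower was 0.968% with Set1a+Set1b and 6.09% in the libraries labelled Pnuts sh. The share called higher is given for Wdr82 only. Of 8 macrophage markers 4 fell and 2 rose with Wdr82, 2 fell and 1 rose with Set1a+Set1b, and 1 fell and 2 rose in the libraries labelled Pnuts sh. Of 5 neutrophil markers Mpo rose with Wdr82 and S100a9 with Set1a+Set1b, while Mpo, Ngp and S100a9 fell in the libraries labelled Pnuts sh. Of 2 mast cell and progenitor markers fitted, Cd34 fell with Wdr82 and in the libraries labelled Pnuts sh. The 1 lymphocyte marker fitted, Ighm, and the 1 stromal marker, Pdgfrb, rose with Wdr82 and were not called for the other hairpins, and the 1 erythroid marker was not called.

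Of 16 factors of histone transcription and pre-mRNA processing, 7 fell (17.1% of all genes) and 1 rose (17.5%) with Wdr82, with a median of -0.21. The same shares of all genes hold for the other lists below. Slbp changed by -0.23 (SE 0.07, adjusted p = 0.040), Srrt, which links the cap complex to histone 3′ end formation, by -0.25 (SE 0.06, adjusted p = 0.010) and the scaffold subunit gene Sympk by -0.23 (SE 0.07, adjusted p = 0.035). Casp8ap2, a gene of the histone locus body, changed by 0.00 (SE 0.12). Of 9 replication-independent variant genes fitted, 5 fell and 0 rose, with a median of -0.42. H2afx, whose RNA can also end in the stem-loop, changed by -0.91 (SE 0.11), the centromeric gene Cenpa by -0.58 (SE 0.06), H3f3b by -0.42 (SE 0.11, adjusted p = 0.014) and H2afy by 0.13 (SE 0.07, adjusted p = 0.22). Of 11 chaperone and deposition genes 5 fell and 0 rose, with a median of -0.22. Nasp, a chaperone of H1 and H3, changed by -0.22 (SE 0.06, adjusted p = 0.014), Daxx by -0.53 (SE 0.14, adjusted p = 0.014), Atrx by 0.09 (SE 0.09) and Rbbp4 by -0.10 (SE 0.08), of which the last 2 did not pass.

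**Figure D3:**
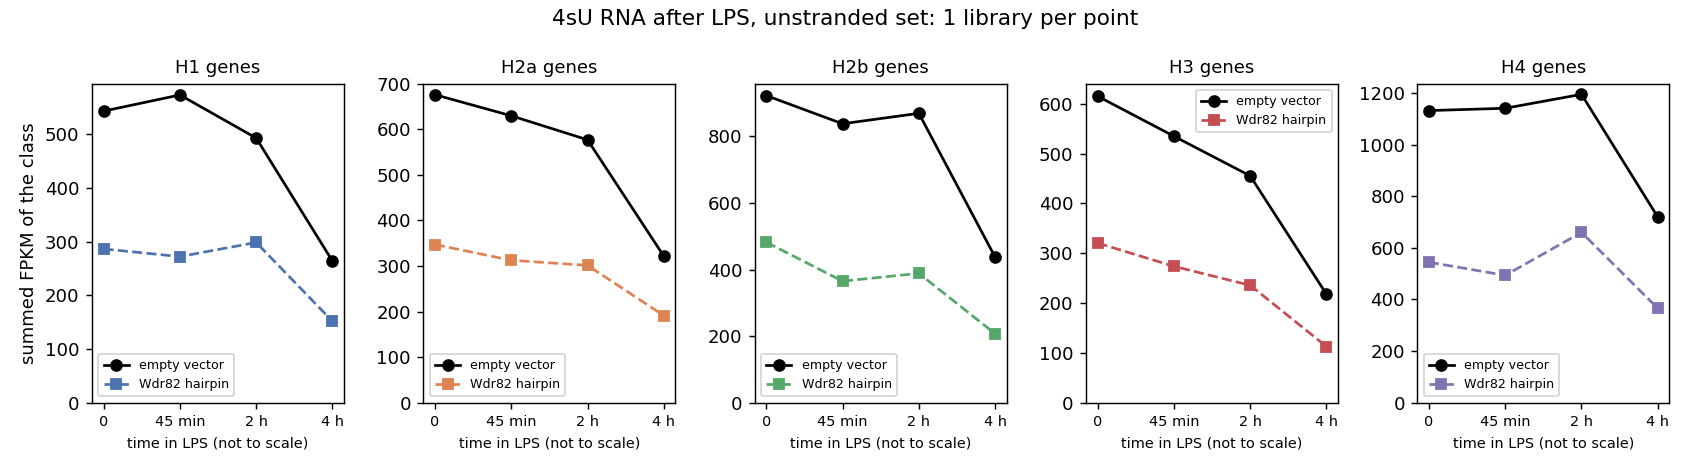
Each panel sums the FPKM of 1 histone class in the unstranded 4sU set, with 1 library per point, against the time in LPS (not to scale), for the empty vector (black) and the Wdr82 hairpin (coloured). All 5 classes were lowest at 4 h in both vectors, and the hairpin lay below the empty vector at each time.

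Histone RNA was lower after 4 h of LPS. In the unstranded set with LMP, the summed level of all members was 3889 FPKM untreated, 3717 at 45 min, 3590 at 2 h and 1959 at 4 h. With sh1137 it was 1980, 1717, 1884 and 1028 FPKM. At 4 h over untreated, 35 of 61 members were at least 2-fold lower with LMP (11.3% of all genes) and 30 of 59 with sh1137 (11.7%), with medians of -1.19 and -1.06. At 2 h the counts were 4 of 61 (7.30%) and 1 of 59 (8.71%), with medians of -0.22 and -0.21. With LMP the 4 h medians were -1.48 for H1, -1.22 for H2a, -1.15 for H2b, -1.53 for H3 and -0.82 for H4 genes. Hist1h3g had the lowest value, going from 85.8 to 13.1 FPKM, and Hist1h1b went from 170 to 48.3 FPKM. Hist3h2a stood against the rest, at 10.2 and 22.6 FPKM with LMP and 7.68 and 27.3 FPKM with sh1137. Hist2h2aa1 was the other member at least 2-fold higher with LMP. It went from 0 to 1.87 FPKM, near the floor, and the deposited bounds overlapped. At 4 h the replication genes were lower too, with 18 of 25 at least 2-fold lower in either vector and medians of -1.54 and -1.58, and their part in the histone result was not tested. Each of these ratios rests on 1 library per time, with no repeat.

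At 45 min, where 3 sets held an untreated and a treated library of each vector, limma was fitted to 13572 genes. In control cells 2 of 60 members fell and 0 rose, with a median of -0.12, while 8.02% of all genes were called lower, so the members' share was below that of all genes. They were Hist2h2be, at -0.71 (SE 0.16, adjusted p = 0.034), and Hist1h3h, at -0.50 (SE 0.12, adjusted p = 0.037), which was named after its value was seen. In the hairpin cells of the 3 targets 26 of 60 fell and 0 rose, with a median of -0.46, while 9.66% of all genes were called lower. That count fell to 4 without the ratio labelled Pnuts sh, to 5 without the Set1a+Set1b hairpin ratio, to 13 without the unstranded LMP ratio and to 17 with no filter on FPKM. The difference between hairpin and control cells itself passed for 0 of 60 members and for 0.0147% of all genes, and 14 members, all lower, had an unadjusted p under 0.05, against 5.05% of all genes. Within the sets the members' median was -0.22 in hairpin and -0.13 in control cells of the unstranded set, -0.54 and -0.32 in the Set1a+Set1b set and -0.61 and 0.09 in the Pnuts set, lower in hairpin cells each time. With the set as a block the difference passed for 0 members and 0 of all genes, and 17 members, all lower, had an unadjusted p under 0.05, against 5.59% of all genes. The adjusted test thus does not show the call in hairpin cells to differ from control cells.

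In the stranded set at 1 h, which stood apart by class, the classes differed with LMP: the medians were 0.37 for H2a, 0.50 for H2b and 0.25 for H1, against -0.06 for H3 and -0.83 for H4 genes. With sh1137 they were -0.14, -0.06, -0.26, -0.37 and -0.78 in the same order. The summed level rose from 5910 to 10670 FPKM with LMP, of which Hist1h2bb took 718 and 3851 FPKM, while with sh1137 it was 3113 and 3141 FPKM.

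**Figure D4:**
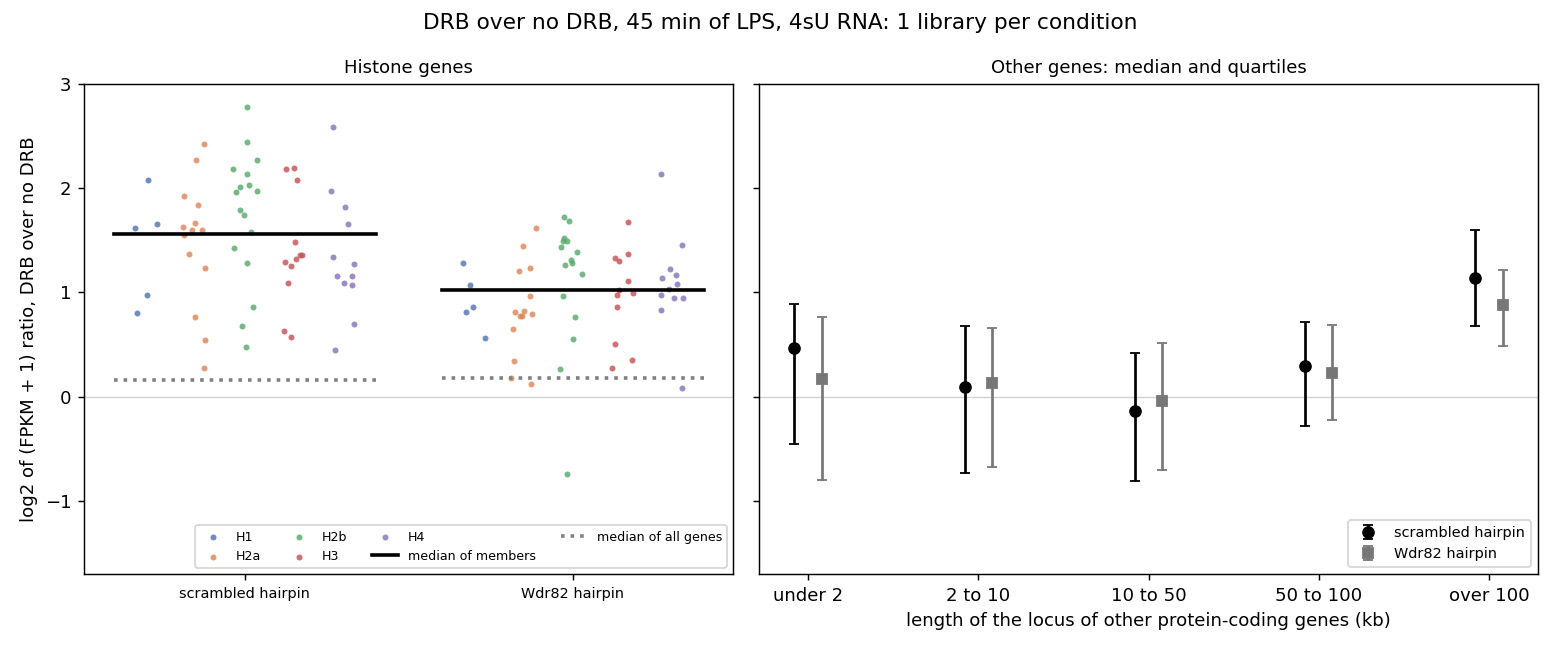
On the left each point is 1 histone gene, with the log2 ratio of FPKM + 1 in the DRB library over the library without DRB, for cells with the scrambled or the Wdr82 hairpin; on the right are the median and quartiles of other protein-coding genes by the length of their locus. The members' medians were 1.56 and 1.02, above the medians of genes under 2 kb (0.47 and 0.17), while genes over 100 kb had medians of 1.14 and 0.88.

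With DRB, histone RNA made up a larger part of the labelled RNA. In cells with the scrambled hairpin 48 of 60 members were at least 2-fold higher with DRB (16.7% of all genes) and 0 were 2-fold lower (16.0% of all genes), and the median was 1.56 against 0.16 over all genes. With sh1137 the counts were 30 of 59 higher (13.7%) and 0 lower (15.9%), with a median of 1.02 against 0.18. The summed level went from 3298 to 10050 FPKM with the scrambled hairpin and from 2232 to 4927 FPKM with sh1137. FPKM is relative to all mapped fragments, so a higher FPKM can go with a fall in other RNA, and which of the 2 occurred was not measured here.

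Values were higher with DRB in each class, with medians in scrambled cells of 1.62 for H1, 1.600 for H2a, 1.96 for H2b, 1.34 for H3 and 1.22 for H4 genes. Hist1h1e went from 90.5 to 287 FPKM, Hist1h2bg from 143 to 559, Hist1h2bb from 116 to 461 and Hist1h4d from 307 to 777 FPKM in scrambled cells. With sh1137 they went from 72.7 to 178, from 95.5 to 276, from 72.8 to 242 and from 202 to 445 FPKM. Hist1h4i had the highest value with sh1137, going from 26.1 to 118 FPKM, and in scrambled cells it went from 40.9 to 250 FPKM. Hist2h2ac had the lowest ratio in scrambled cells, at 61.5 and 74.8 FPKM. Hist2h2be was the only 1 of the 59 members measured that was lower with DRB in sh1137 cells, at 3.96 and 1.98 FPKM, while in scrambled cells it was 1.60 and 3.72 FPKM.

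Other short genes had a lower median. Of 191 other protein-coding genes with a locus under 2 kb that was not shared, 37 were at least 2-fold higher with DRB in scrambled cells and 31 at least 2-fold lower. Genes over 100 kb were also higher, with 290 of 496 at least 2-fold higher. Of the replication genes 1 of 25 was at least 2-fold higher and 2 lower, with a median of -0.14 in scrambled cells. With DRB present, 31 of 60 members were at least 2-fold lower with sh1137 than with the scrambled hairpin (5.08% of all genes), and the median was -1.01. The set holds 1 library per condition, so none of these differences has a replicate check.

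**Figure D5:**
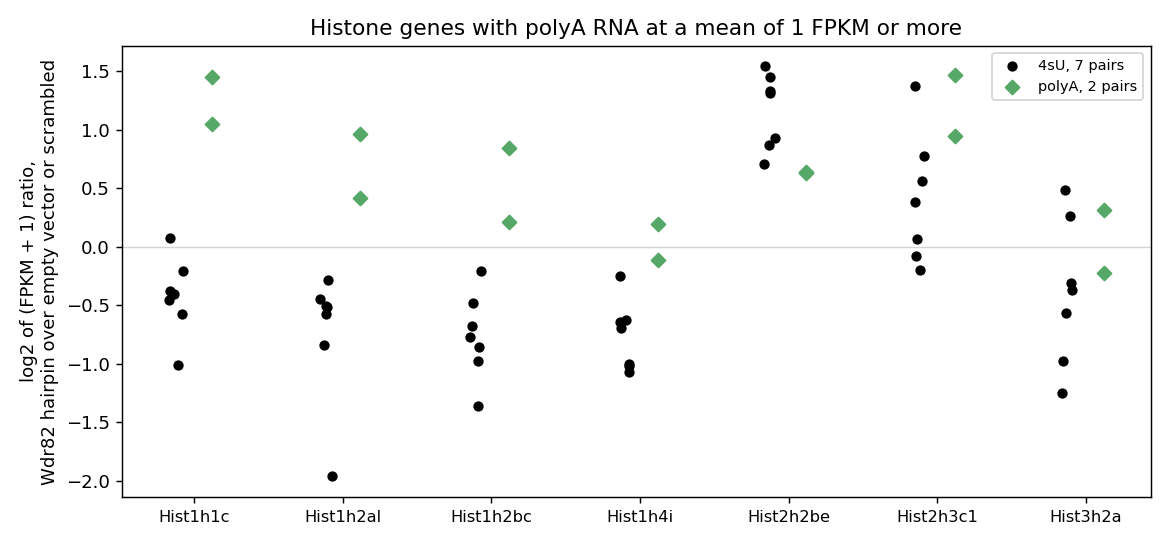
Each point is the log2 ratio of FPKM + 1 of the Wdr82 hairpin over its control in 1 pair, for the 7 histone genes with a mean of at least 1 FPKM in polyA RNA (black, 4sU, 7 pairs; green, polyA, 2 pairs, which nearly coincide for Hist2h2be). Hist1h2al and Hist1h2bc were below 0 in all 4sU pairs and above 0 in both polyA pairs.

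In polyA RNA nearly all histone genes were at or near 0. The summed level of the 69 members was 33.5 to 69.3 FPKM over the 4 polyA libraries, against 1028 FPKM or more in each 4sU library without DRB, and 5 to 8 members reached 1 FPKM. The 7 members with a mean of at least 1 FPKM were Hist1h1c (20.2), Hist1h2bc (11.9), Hist3h2a (4.52), Hist1h4i (3.26), Hist1h2al (3.01), Hist2h3c1 (1.67) and Hist2h2be (1.37 FPKM). Several of the most abundant 4sU members were barely seen, such as Hist1h4d, listed at 0 FPKM in 3 of the 4 libraries and at 0.118 FPKM in the other, and Hist1h1b, at 0.0377 to 0.189 FPKM. Tables were normalised separately, so levels across the 2 kinds of RNA are set side by side only as a description.

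Hist1h1c, the member with the highest polyA level, was higher with sh1137 in both polyA pairs. It was at 13.5 FPKM with LMP and 29.0 FPKM with sh1137 untreated, and at 9.73 and 28.3 FPKM after 4 h of LPS, which is 1.05 and 1.45 on the log2 scale. Hist1h2bc was at 10.9 and 12.8 FPKM untreated and at 8.30 and 15.8 FPKM at 4 h. Hist1h2al was at 1.60 and 4.06 FPKM and at 2.60 and 3.79 FPKM, and Hist2h3c1 at 0.872 and 2.60 FPKM and at 0.382 and 2.82 FPKM. For Hist1h1c, Hist1h2bc and Hist1h2al the deposited bounds of the 2 libraries overlapped in both pairs. Hist2h2be was at 1.35 and 2.63 FPKM and at 0.368 and 1.13 FPKM, higher with sh1137 as in 4sU RNA. Hist1h4i, at 3.27 and 2.95 FPKM and at 3.12 and 3.71 FPKM, and Hist3h2a, at 3.69 and 3.01 FPKM and at 4.97 and 6.41 FPKM, changed in opposite directions in the 2 pairs. Hist2h3c1 reached 1 FPKM only in the sh1137 library of each pair, and Hist2h2be at 4 h too, so no count over the members measured is given. The summed lymphocyte markers were lower in both sh1137 polyA libraries than in either LMP library, and their part in these values was not tested.

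Replication genes had higher values with sh1137 in polyA RNA: 18 of 25 were at least 2-fold higher untreated (3.08% of all genes), with a median of 1.25, and 6 of 24 at 4 h (3.72%), with a median of 0.81. Mcm6 was at 16.3 and 57.3 FPKM and Pcna at 41.0 and 98.9 FPKM in the untreated polyA pair, against 53.2 and 34.6 FPKM and 115 and 82.7 FPKM in the untreated unstranded 4sU pair. The polyA and 4sU sets come from different libraries and the difference between them was not tested.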

How the data were processed

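The authors measured 4sU-labelled or polyA RNA in 28 libraries and deposited 6 tables of FPKM values with a lower and an upper bound and a status per gene and library. Per the submitters' processing notes, TopHat 1.3.1, Cufflinks 2.1.1 and Cuffdiff 2.1.1 were used with mm9. For the annotation, the method of scaling libraries and the confidence level behind the bounds, nothing is stated in the labels. Read counts were not used and depth is unknown: from the commonest ratio of low values, libraries of a table differed in depth by 1.59 to 3.34 times, and 11512 to 13765 genes reached 1 FPKM in libraries without DRB. All 69 members had the status OK in every library.

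Here, log2 ratios of (FPKM + 1) were formed within a table. The limma fits (version 3.58.1, R 4.3.3, prior spread following the mean level) used genes with status OK and a mean of at least 1 FPKM over the libraries fitted, with Benjamini-Hochberg adjustment over all genes fitted. The fitting script was tested on simulated data. Single pairs, 30 in all, were described at 2-fold with no test, for genes with at least 1 FPKM in either library. Two-sided tests were used. LPS times come from the sample titles, since 1 protocol text gives 4 h for all.

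The members, the gene lists and the tests were chosen with earlier results of these data known. Named genes were the 3 most abundant members of each class, the lowest and highest Wdr82 change of each class, members with a mean of at least 1 FPKM in polyA RNA and the 4 most abundant genes of each pathway list. Hist2h2ac, Hist1h2ae, Hist2h2aa1, Hist1h2bl, Hist1h3h and the members that were not called were named after their values were seen. Alternatives were the pseudocount, the filter, centring, single pairs or sets left out, the ratios labelled Pnuts turned, the set as a block, and members that share a locus left out. No sequence was used for members with no promoter entry or with several.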

Additional observations from a re-analysis of the deposited data

Results flagged for a closer look

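In 30 groups of 7 Wdr82 pairs examined for a value far from the others, 3 held one. Chance alone flags about 1 in 20 independent groups. These groups share the same pairs and in part the same genes, so that rate cannot judge the 3. All 3 came from the stranded pair at 1 h of LPS. The median log2 ratio of the H2a genes was -1.76 there, against -0.98 to -0.62 in the other 6 pairs. Hist1h3i was at -1.87, against -1.04 to -0.48, and Hist1h2al at -1.97, against -0.84 to -0.28.

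Hist1h2bl was the only member whose change differed between hairpins by the test of the difference, by 0.98 on the log2 scale for Wdr82 minus the libraries labelled Pnuts sh (limma, adjusted p = 0.022), and it was lower in 7 of 7 Wdr82 pairs and in 2 of 2 pairs labelled Pnuts. With the ratios labelled Pnuts turned the difference was -2.01. Hist1h2al and Hist1h2bc had opposite signs in 4sU RNA (below 0 in 7 of 7 pairs) and polyA RNA (above 0 in 2 of 2 pairs), with mean ratios 1.42 and 1.297 higher in polyA RNA. That difference was not tested, and the deposited bounds of these genes overlapped within both polyA pairs.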

How the results depend on the processing

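Of 204 alternative values of the counts of called members, 179 were equal to the main count or within 1.5 times of it. They include main counts of 0 that stayed 0, so the 179 does not measure how steady the larger counts were. With 1 mean ratio per set, which leaves 2 residual degrees of freedom, limma called 0 members for every hairpin and for the Wdr82 minus Pnuts difference, where the unadjusted counts stand in the report. With no filter on FPKM the Set1a+Set1b count was 15, the LPS count in control cells 0 and that in hairpin cells 17. With a mean of at least 5 FPKM 0 members were called higher with Wdr82 and 1 lower with LPS in control cells. Leaving out each pair in turn, the Wdr82 counts were 49 to 53 lower and 1 higher, the Set1a+Set1b count 1 to 29, the Pnuts count 2 to 47, the Wdr82 minus Pnuts count 0 to 2, the LPS count in control cells 0 to 3 and that in hairpin cells 4 to 20; the cause was not tested beyond the fewer pairs. Leaving out the stranded set or the pairs labelled Pnuts, both chosen after seeing the data, left all counts they gave within 1.5 times, as did centring and a pseudocount of 0.1 FPKM.

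The sign of the members' median held in 26 of 30 single pairs under all 5 alternatives. As a ratio of summed FPKM it was -1.77 for the stranded hairpin pair at 1 h, and for 1 h of LPS in that set 0.85 with LMP and 0.013 with sh1137, where it changed sign. In polyA RNA 2 of the 8 members measured untreated and 3 of 8 at 4 h reached 1 FPKM only with sh1137, and the untreated hairpin pair gave 1.01 with a pseudocount of 0.1, 0.051 with no filter, 0.63 with at least 5 FPKM, 0.76 centred and 0.68 from sums, and the 4 h pair 1.15, 0, 0.85, 0.85 and 1.05. The labels give no replicate numbers, and the ratios pair libraries by set and condition. With the set as a replicate block, also chosen after seeing the data, the LPS difference between hairpin and control cells was called for 0 members, as without the block. The hairpin effects could not be fitted with such a block, since Set1a+Set1b and Pnuts have 1 set each. With the ratios labelled Pnuts turned, also added later, 0 members were called lower and 43 higher for Pnuts, and 55 for Wdr82 minus Pnuts. The counts for Pnuts follow from the change of sign and test nothing further.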
